A study of Mus musculus with 4 samples.

Results

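Wnt signalling genes were compared between mouse hematopoietic stem cells (HSC) and the multipotent progenitors (MPP) that follow them. The list held 42 genes in 6 roles: 4 ligands, 14 receptors, 3 transducers, 4 members of the destruction complex, 10 nuclear factors counting beta-catenin, and 7 antagonists. Every probe set that the array annotation assigned to exactly 1 of these genes was taken. This gave 102 probe sets for 41 of the 42 genes, out of 18193 genes named on the array. Tcf7 is without values because that annotation names no probe set for it, and Aes carries its newer symbol, Tle5, in RefSeq. Both populations came from C57BL/6 mice and were sorted from the KSL fraction, a gate on c-Kit, on the surface antigen Sca-1 and on the absence of lineage markers. HSC, labelled CD34(-)KSL, lacked surface CD34 and MPP, labelled CD34(+)KSL, carried it, and no genetic change or treatment is named for either. Each group held 2 samples, called biological replicates in the labels. Separate animals are not mentioned there, so each p-value rests on the spread between these samples alone, which may be technical. From each sample an amount of RNA matching 3000 cells went through 2 cycles of amplification and was hybridised to 1 Affymetrix whole-genome mouse expression array each.

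Wnt proteins are secreted lipid-modified ligands that bind Frizzled receptors, together with the co-receptors Lrp5 and Lrp6 in the canonical branch. Without a ligand, the destruction complex of Axin, Apc, casein kinase and Gsk3 marks beta-catenin for degradation. With a ligand, Dishevelled proteins bring Axin to the membrane, and beta-catenin enters the nucleus and binds TCF/LEF factors in place of Groucho co-repressors. In blood formation the pathway is known mainly for its part in T cell development and for dose-dependent effects on stem cell maintenance.

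The arrays were scaled by the authors to one level, and their median intensities ranged from 21.3 to 26.9 in arbitrary units. A floor was set for each array at its highest signal among 27 probe sets for bacterial transcripts, and it ranged from 13.6 to 16.9 units. The sort was visible in the markers: 7 of 8 tested HSC markers (among them Slamf1, Procr and Vwf) were higher in HSC, and the MPP markers Cd34, Flt3 and Cd48 were all lower in HSC. Of 7 T cell genes with a probe set, Cd3d, Cd3e, Cd3g and Cd4 were at or under the floor on every array. Cd8a was above it on all arrays on 1 of its 5 probe sets (44.4 and 46.2 units in HSC, 16.0 and 30.3 in MPP, not called), 1 probe set of Bcl11b in HSC (18.8 and 41.4), and Cd5 in MPP (19.9 and 20.1). HSC replicate 2 had a ratio of 3' to 5' actin signal of 9.42, against 4.99 to 5.26 on the other arrays, and the part of RNA quality in the results was not tested. Of markers of other cell types, 3 of 4 tested neutrophil and monocyte genes were lower in HSC, 2 of 5 megakaryocyte, 1 of 2 erythroid and 1 of 3 endothelial genes were higher, and none of 3 B cell genes was called. In bulk samples, fewer cells of a type and less RNA per cell cannot be told apart.

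Receptors were the role in which most differences lay. Of 26 Wnt genes tested, represented by the tested probe set with the highest mean, 5 rose in HSC (Fzd3, Fzd6, Fzd7, Ryk and Sfrp1), 1 fell (Tle3) and 20 were not called at a limma adjusted p under 0.05. Over all 12382 genes tested the same rule called 7.71% higher and 5.90% lower in HSC. Of the 5 genes that rose, 4 were receptors, among 10 receptors tested. Dim probe sets were left out by their mean over all arrays. A probe set could thus pass through a single group, as both called Ryk probe sets and the called Fzd4 probe set did through HSC. By probe set, 7 of 49 were called higher and 1 lower, against 5.96% and 4.65% of all 27022 probe sets. The median log2 difference, HSC minus MPP, was 0.24 over the 26 Wnt genes and 1.11 over the 10 receptors, beside 0.10 over all genes tested. Equalising the array medians changed the split over all probe sets from 1611 higher and 1257 lower to 1020 and 2379, while 4 Wnt genes were higher and 1 lower. The plot of all tested Wnt probe sets by role gives each difference with its 95% interval.

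**Figure D1:**
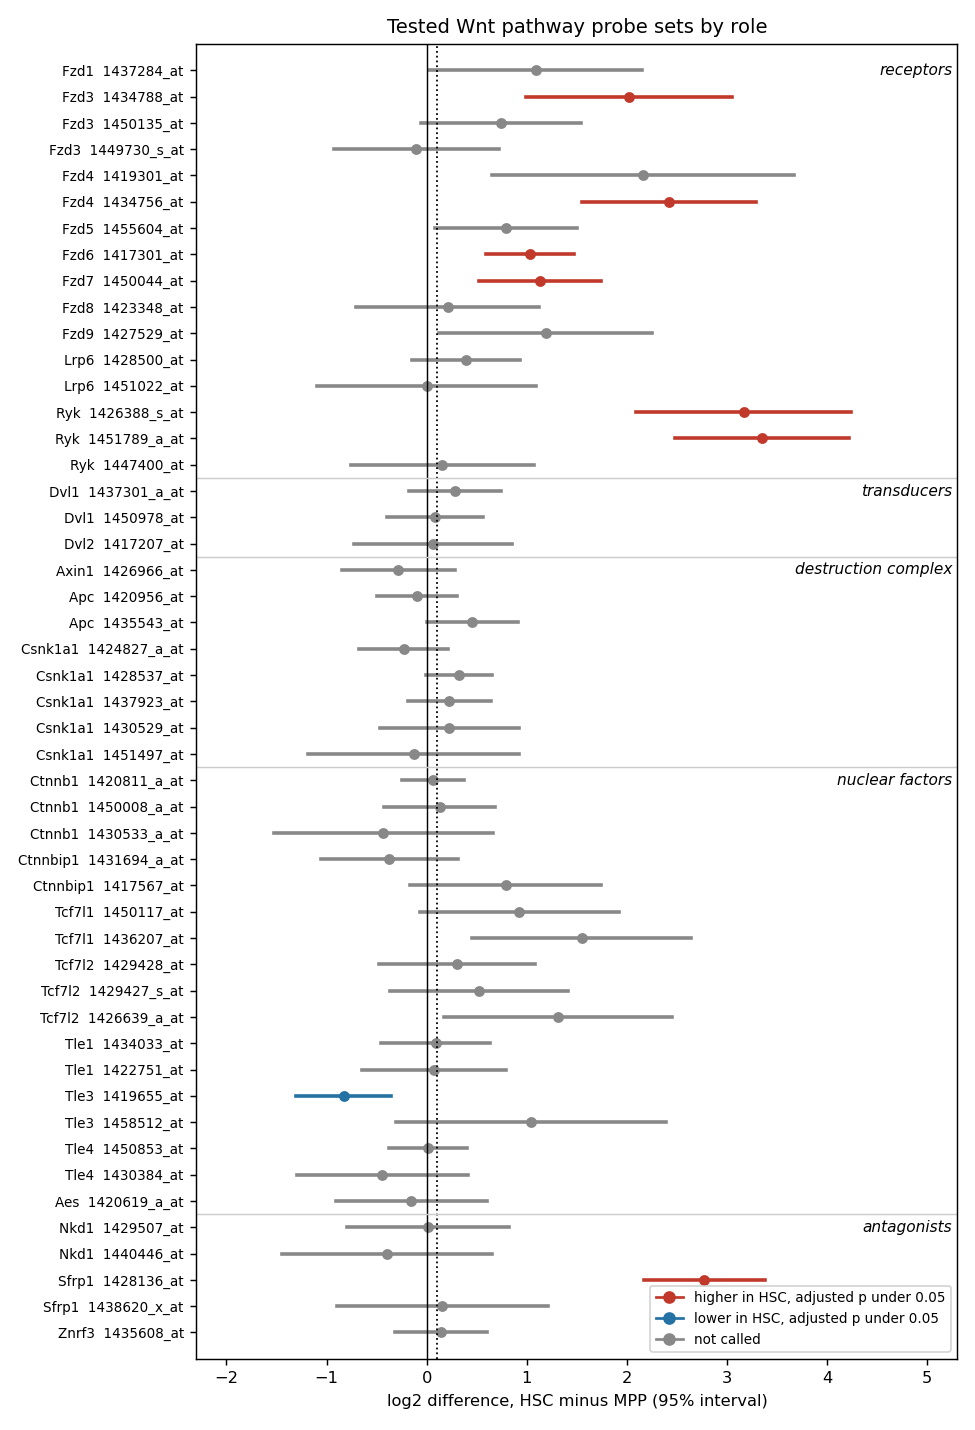
Log2 difference between HSC and MPP (x axis) for each of the 49 tested Wnt probe sets (one line each, grouped by role), with 95% intervals from limma; red is higher and blue lower in HSC at an adjusted p under 0.05, grey is not called, and the dotted line is the median of all tested probe sets (0.11). The 6 red receptor probe sets belong to Fzd3, Fzd4, Fzd6, Fzd7 and Ryk, and the transducer and destruction complex probe sets all have intervals that reach 0.

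Ryk and Sfrp1 had the largest differences among the genes' representative probe sets. Ryk encodes a Wnt receptor with a kinase-like domain that lacks catalytic activity. On its representative probe set, 1426388_s_at, HSC replicates 1 and 2 read 166 and 130 units, and MPP replicates 1 and 2 read 24.8 and 3.46. Both HSC values were far above the floor and above both MPP values, and 1 of the 2 MPP values was under the floor. The log2 difference was 3.17 (SE 0.48, limma adjusted p = 0.00223), an 8.97-fold difference. Folds here are taken after adding the pseudocount of 6.01 units to each intensity, so those of dim genes come out smaller than the ratio of the intensities. Where a value lies under the floor, as on 1 MPP array here, the true ratio is not known. The size rested on the MPP arrays: the difference was 2.32 without MPP replicate 2, under the 2.65 of Sfrp1, and 4.01 without MPP replicate 1 (limma adjusted p = 4.96e-04 and 4.08e-06). On the mean of its tested probe sets it was 2.22 (adjusted p = 0.00336). A second Ryk probe set, 1451789_a_at, read 78.1 and 104 units in HSC and 3.24 and 3.65 in MPP, both MPP values under the floor, so that it was at least 6.32-fold higher in HSC (adjusted p = 4.53e-04). On those MPP values alone this probe set would not have passed the filter on dim probe sets. The third tested Ryk probe set lay at 0.16 (adjusted p = 0.858), with 19.9 and 24.8 units in HSC and 17.9 and 20.9 in MPP. The 2 called Ryk probe sets have names ending in _s_at or _a_at, which mark probes shared between transcripts, and without probe sets of that kind Ryk was represented by the third and had no call.

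Among the Frizzled genes, Fzd6 had a clear difference with both groups above the floor. Fzd6, a Frizzled linked mainly to planar polarity, read (1417301_at) 451 and 406 units in HSC and 183 and 232 in MPP. The groups did not overlap, with means of 429 ± 32.2 and 207 ± 34.3 (SD, n = 2 each). The log2 difference was 1.03 (SE 0.20, limma adjusted p = 0.00771), against a median of -0.05 over all tested probe sets of similar mean level. That median was 0.20 for the representative probe set of Ryk, 0.17 for those of Fzd3 and Sfrp1, and 0.12 for that of Fzd7. It was 0.25 for the called Fzd4 probe set and 0.09 for the representative one of Tle3. Without MPP replicate 1 the log2 difference of Fzd6 was 0.87, with no call.

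Fzd7, a receptor of the canonical branch in many stem cell types, read (1450044_at) 109 and 165 units in HSC and 60.9 and 54.9 in MPP. Both HSC values lay above both MPP values, and the log2 difference was 1.13 (SE 0.27, limma adjusted p = 0.0247). Leaving out HSC replicate 2 gave 0.84 (adjusted p = 0.101), leaving out MPP replicate 1 gave 1.199 (0.0577) and leaving out MPP replicate 2 gave 1.06 (0.102), each without a call. Quantile normalization and equal array medians ended it too (0.99 and 0.90, adjusted p = 0.0545 and 0.0564).

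Fzd4 is also the receptor of the ligand Norrin. One Fzd4 probe set, 1434756_at, read 63.3 and 59.0 units in HSC and 7.26 and 5.85 in MPP, under the floor on both MPP arrays. It was at least 4.29-fold higher in HSC (log2 difference 2.42, SE 0.39, limma adjusted p = 0.00313), and was called in all 12 alternatives that gave it a value. A stricter filter, which left out the lowest 60%, removed it. On its MPP values alone it would not have passed the filter used here, so its call is not independent of that filter. The brighter Fzd4 probe set, 1419301_at, which represents the gene, spread widely within each group: 68.2 and 162 units in HSC, 54.4 and 4.35 in MPP. Its log2 difference of 2.16 was not called (SE 0.68, adjusted p = 0.0722). That value rested on single arrays, being 2.75 without HSC replicate 1 and 3.43 without MPP replicate 1 (adjusted p = 0.0181 and 2.02e-04), but 0.89 without MPP replicate 2 (adjusted p = 0.303).

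Fzd3, a Frizzled best known from axon guidance and planar polarity, read 99.96 and 109 units in HSC and 42.0 and 9.38 in MPP on its representative probe set, 1434788_at. The HSC arrays lay close together and MPP replicate 2 was under the floor. The log2 difference was 2.02 (SE 0.46, limma adjusted p = 0.0191). Without MPP replicate 2 it was 1.201 with no call (adjusted p = 0.0642). The other 2 tested Fzd3 probe sets lay at 0.74 and -0.10 (adjusted p = 0.244 and 0.899), and their mean with the first was 0.89 with no call (adjusted p = 0.110).

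**Figure D2:**
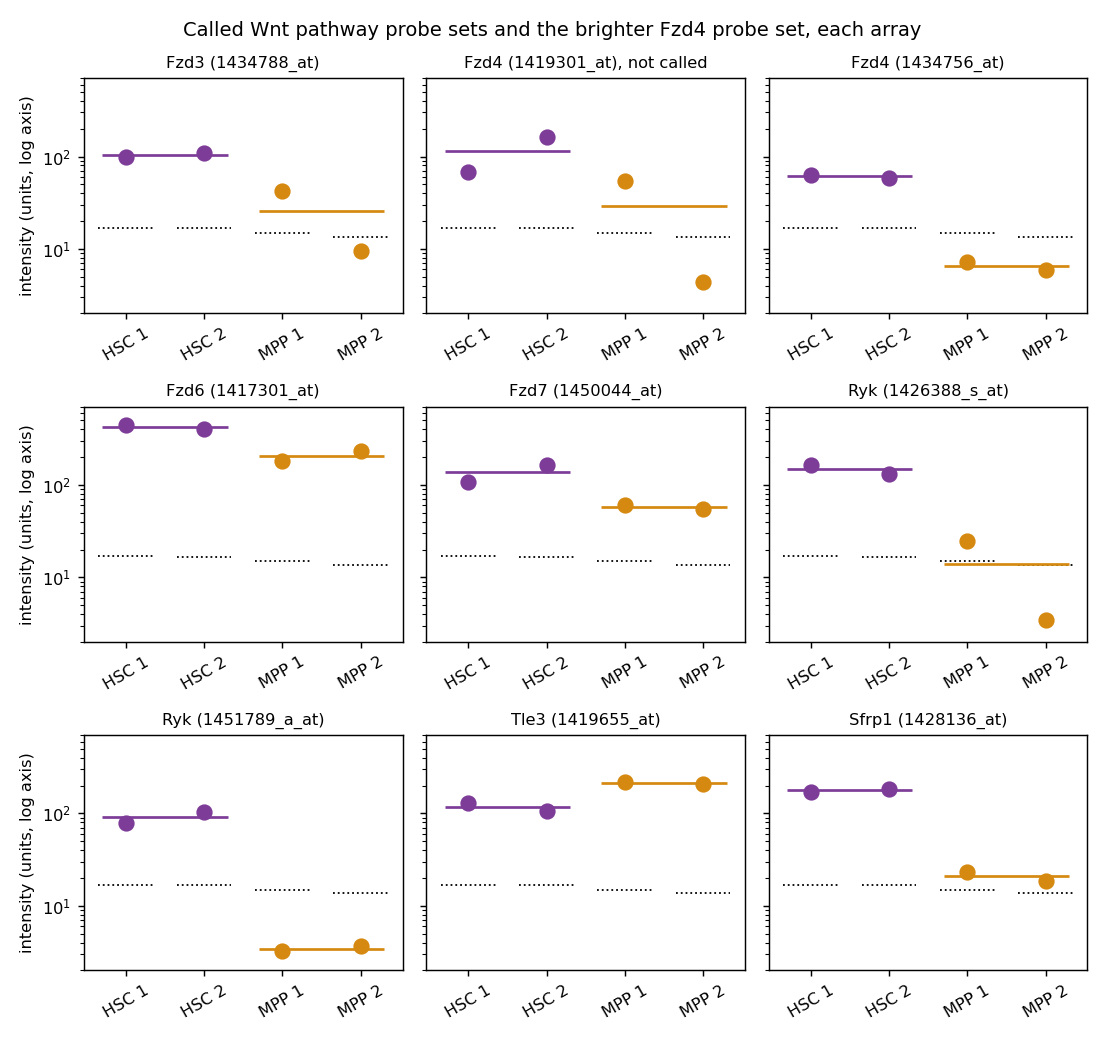
Intensity on a log axis (y, arbitrary units) on each of the 4 arrays (x) for the 8 called Wnt probe sets and the brighter Fzd4 probe set; horizontal bars are group means and dotted lines each array's floor. Both MPP values of Ryk (1451789_a_at) and of Fzd4 (1434756_at) lie under the floor, while Fzd6, Fzd7, Tle3 and Sfrp1 are above it on all 4 arrays.

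The remaining receptors were not called. Fzd5 read 83.2 and 83.4 units in HSC and 61.6 and 33.1 in MPP. The groups did not overlap, and the difference of 0.80 (log2, SE 0.32) had a limma adjusted p of 0.154. Fzd9 read 29.8 and 22.9 units in HSC and 5.43 and 11.4 in MPP, under the floor on both MPP arrays, and its bound of at least 1.83-fold was not called (adjusted p = 0.158). Fzd1, Fzd8 and Lrp6, the co-receptor, had log2 differences of 1.09, 0.21 and 0.39 (adjusted p = 0.194, 0.803 and 0.363). All 10 tested receptors had a difference above 0, beside 57.7% of all tested genes, and 8 of the 10 had an unadjusted p under 0.05 in limma, beside 28.7% of all tested genes. These counts are not independent of the filter on dim probe sets, which used the mean over all arrays. On their MPP values alone, the probe sets representing Ryk and Fzd9 would not have passed it. After quantile normalization, with equal array medians or without MPP replicate 1, 9 of 10 were above 0, with medians of 0.98, 0.88 and 1.04. The number of called receptors was 4 in the setting of the report and 1 without the trend of variance on level. With no filter on dim probe sets, 13 of 14 receptors were above 0 and 2 were called. The other 4 receptors, Fzd2, Lrp5, Ror1 and Ror2, were among the dim probe sets left out of the test, and their values ran from 0.56 to 26.1 units.

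**Figure D3:**
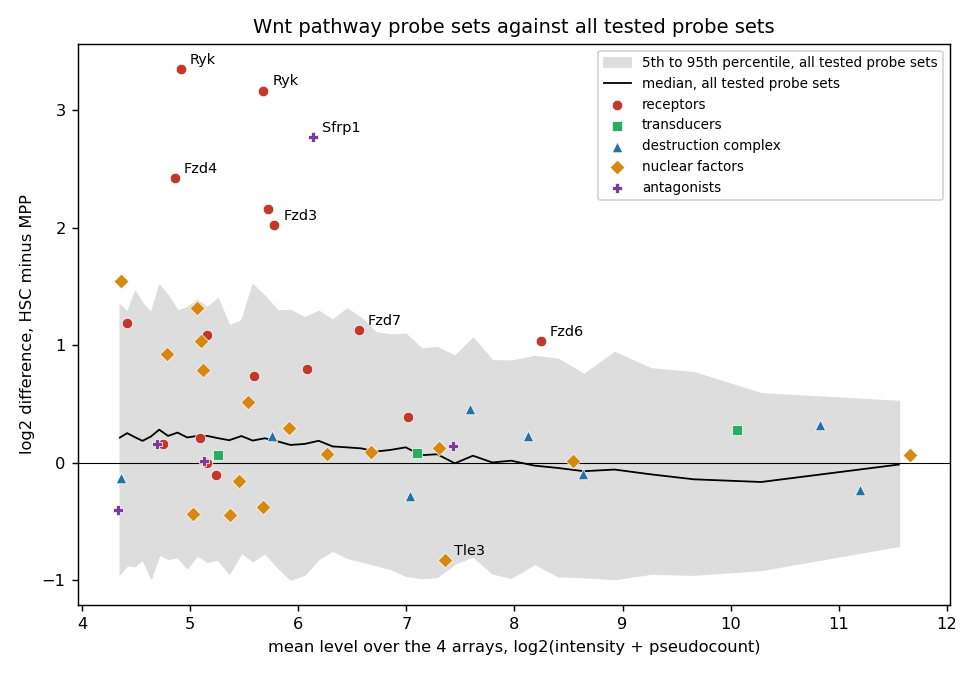
Log2 difference between HSC and MPP (y) against mean level over the 4 arrays (x, log2 of intensity plus pseudocount) for the 49 tested Wnt probe sets, marked by role; the black line is the median and the grey band the 5th to 95th percentile of all 27022 tested probe sets. The labelled Ryk, Sfrp1, Fzd4 and Fzd3 points lie well above the band at middle to low levels. At those levels the median of all probe sets is itself near 0.2. Fzd6 lies slightly above the band, while the called Fzd7 and Tle3 points lie inside it. Ctnnb1 is the rightmost point, near 0.

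Promoter sequence is shown for the called members that have a window in the RefSeq promoter table used here (assembly GRCm38.p6), the receptors Ryk, Fzd7 and Fzd4, higher in HSC (Fzd4 on its dimmer probe set only), and the co-repressor Tle3, which was lower. Each run gives the 250 bases before the transcription start, 5′ to 3′ on the gene's strand, with capitals at motif matches.
Ryk (chr9:102834670-102834919, + strand): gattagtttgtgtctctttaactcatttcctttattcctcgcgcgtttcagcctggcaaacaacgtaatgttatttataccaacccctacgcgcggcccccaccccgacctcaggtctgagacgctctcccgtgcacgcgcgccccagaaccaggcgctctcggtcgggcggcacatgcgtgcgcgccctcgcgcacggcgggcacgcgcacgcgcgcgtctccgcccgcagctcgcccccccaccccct
Fzd4 (chr7:89404116-89404365, + strand): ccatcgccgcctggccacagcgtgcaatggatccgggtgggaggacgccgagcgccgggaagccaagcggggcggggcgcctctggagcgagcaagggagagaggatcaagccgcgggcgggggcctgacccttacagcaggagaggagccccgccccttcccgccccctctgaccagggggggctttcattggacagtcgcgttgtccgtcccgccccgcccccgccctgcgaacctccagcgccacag
Fzd7 (chr1:59481897-59482146, + strand): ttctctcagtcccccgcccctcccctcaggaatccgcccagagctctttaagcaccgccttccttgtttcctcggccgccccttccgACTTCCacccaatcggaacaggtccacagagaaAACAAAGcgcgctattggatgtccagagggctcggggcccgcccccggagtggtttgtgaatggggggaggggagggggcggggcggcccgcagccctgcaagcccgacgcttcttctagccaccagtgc
Tle3 (chr9:61372116-61372365, + strand): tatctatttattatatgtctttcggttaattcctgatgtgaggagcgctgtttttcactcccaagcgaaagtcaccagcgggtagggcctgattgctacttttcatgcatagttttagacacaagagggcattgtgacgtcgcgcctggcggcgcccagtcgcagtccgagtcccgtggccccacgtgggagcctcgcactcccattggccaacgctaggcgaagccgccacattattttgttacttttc
Both strands were searched for 5 short motifs. For TCF/LEF factors these were CTTTGAT, called the first form here, and a second form, spelled CTTTGTT. The GATA motif was spelled AGATAA. For ETS factors the letters were GGAAGT, and for RUNX factors TGTGGT. Of the 4 windows shown, that of Fzd7 held matches and those of Ryk, Fzd4 and Tle3 held none. The Fzd7 window had the second TCF/LEF form on the opposite strand, 130 to 124 bases before the start, and the ETS motif on the opposite strand, 163 to 158 bases before it, without overlap. Its capitals are therefore the reverse complements of these motifs. Among all 32851 windows, 3.21% held the first TCF/LEF form, 5.03% the second, 9.99% the GATA motif, 19.7% the ETS motif and 14.0% the RUNX motif. Of 39 windows for 28 Wnt genes, 1 held the first TCF/LEF form (Wnt5b) and 3 the second (Dkk1, Fzd7 and Tcf7l2), while the GATA, ETS and RUNX motifs were in 2, 7 and 2. The share of G and C was 65.2% for Ryk, 72.8% for Fzd4, 65.2% for Fzd7 and 52.4% for Tle3, beside a median of 52.4% over all windows, and the 4 windows held 33, 25, 17 and 17 CG pairs, beside a median of 6. A match says only that the letters are present in the window.

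No ligand in the list passed the filter on dim probe sets. Wnt4, Wnt5a, Wnt5b and Wnt10b, secreted signals of the canonical (Wnt10b) and mainly non-canonical (Wnt5a) branches, were read by 9 probe sets. Their values ran from 0.33 to 22.7 units. Wnt4 was above the floor in 2 of 8 readings, Wnt5a in 1 of 16, and Wnt5b and Wnt10b in none of 8 and none of 4. Most readings were thus at or under the floor, which does not show that these transcripts were absent.

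The step below the receptors showed no called difference. Dvl1, the Dishevelled gene with the brightest probe set, read 948 and 1446 units in HSC and 892 and 1042 in MPP. The groups overlapped, and the log2 difference was 0.28 (95% interval -0.18 to 0.74, limma adjusted p = 0.454). HSC replicate 2 was the highest of the 4. Without HSC replicate 1 the difference was 0.58 and called (adjusted p = 0.0332), and without HSC replicate 2 it was -0.02. Dvl2 read 27.3 and 39.97 units in HSC and 31.2 and 31.6 in MPP, a difference of 0.06 (95% interval -0.72 to 0.85) whose sign turned after quantile normalization or with equal array medians. Dvl3 was left out as dim, with 1.63 to 6.14 units. Neither of the 2 tested Dishevelled genes had an unadjusted p under 0.05 in limma.

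The destruction complex likewise held no call among 3 tested genes, and none had an unadjusted p under 0.05 in limma. Axin1, its scaffold, read 138 and 91.8 units in HSC and 147 and 130 in MPP (log2 difference -0.28, 95% interval -0.85 to 0.28, limma adjusted p = 0.541). Apc, the tumour suppressor that holds beta-catenin in the complex, had 2 tested probe sets at -0.10 and 0.45 (adjusted p = 0.791 and 0.205). Csnk1a1, the kinase that primes beta-catenin, read 1758 and 2656 units in HSC and 2344 and 2748 in MPP on its representative probe set. These overlapped, with a difference of -0.23 (95% interval -0.67 to 0.21, adjusted p = 0.526). Without HSC replicate 2 it was -0.53 and called (adjusted p = 0.0380), and without HSC replicate 1 it was 0.07. A second Csnk1a1 probe set of similar signal lay at 0.32 (adjusted p = 0.212), so the gene's probe sets did not share a direction.

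Axin2, a direct target of the canonical branch that is widely used to read its activity, was under the filter. Its brighter probe set read 35.8 and 18.5 units in HSC, above the floors of 16.9 and 16.7, and 9.38 and 3.73 in MPP, under the floor. The groups did not overlap, but no test was made on it, and the other Axin2 probe set read 1.47 to 16.7 units over the 4 arrays.

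Beta-catenin RNA did not pass the test. Ctnnb1, which encodes it, read 3326 and 3279 units in HSC and 3140 and 3185 in MPP. The means were 3303 ± 33.0 and 3163 ± 31.9 (SD, n = 2 each), and both HSC values lay above both MPP values. The log2 difference was 0.06 (95% interval -0.25 to 0.38, limma adjusted p = 0.833). With equal array medians it was -0.17, still without a call. Dimmer Ctnnb1 probe sets lay at 0.13 and -0.43 with overlapping groups (adjusted p = 0.802 and 0.643). The latter read 40.2 and 10.9 units in HSC and 36.8 and 27.2 in MPP. Ctnnbip1, an inhibitor that binds beta-catenin, read 41.9 and 35.9 units in HSC and 58.3 and 46.3 in MPP (log2 difference -0.37, adjusted p = 0.508), while its other tested probe set lay at 0.79 (adjusted p = 0.297).

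Of the nuclear factors, Tle3 was the member that fell. It encodes a Groucho co-repressor that binds TCF/LEF factors. Its representative probe set, 1419655_at, read 129 and 106 units in HSC and 217 and 208 in MPP. The groups did not overlap, and Tle3 was 1.78-fold lower in HSC (log2 difference -0.83, SE 0.22, limma adjusted p = 0.0334). Leaving out HSC replicate 2 gave -0.70 (adjusted p = 0.0744), leaving out MPP replicate 1 gave -0.80 (0.181) and leaving out MPP replicate 2 gave -0.86 (0.150), all without a call. A dimmer Tle3 probe set lay at 1.04 without a call (54.0 and 34.2 units in HSC, 5.22 and 44.8 in MPP, adjusted p = 0.335), and the mean of both was 0.11.

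No TCF/LEF factor with a tested probe set was called. Tcf7l1, which acts mainly as a repressor, read 33.7 and 30.3 units in HSC and 21.5 and 8.52 in MPP (log2 difference 0.93, limma adjusted p = 0.240). A second Tcf7l1 probe set read 38.9 and 21.4 units in HSC and 5.03 and 7.03 in MPP, both under the floor, and was at least 2.02-fold higher in HSC without passing the test (adjusted p = 0.0760). Tcf7l2 read 87.4 and 41.9 units in HSC and 50.6 and 46.1 in MPP on its representative probe set, above the floor on all arrays and overlapping. Its 3 tested probe sets had differences of 0.30, 0.52 and 1.31 (adjusted p = 0.654, 0.471 and 0.143). Lef1 was left out as dim. Its brighter probe set read 20.1 and 1.91 units in HSC and 18.9 and 17.3 in MPP, so that 1 of the 2 HSC arrays was under the floor. The Groucho genes Tle1 and Tle4 and the shorter family member Aes lay at 0.09, 0.01 and -0.15 (adjusted p = 0.864, 0.9751 and 0.828). Of 8 nuclear factors tested by representative probe set, limma called none higher, and 1 had an unadjusted p under 0.05, which was Tle3. Counted by probe set, 3 of 17 met that unadjusted limit in limma. Besides that of Tle3 these were the second Tcf7l1 probe set and the Tcf7l2 probe set at 1.31. Both were higher in HSC and neither was called.

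Sfrp1 had the smallest p in the list. It encodes a secreted protein that binds Wnt ligands and Frizzled receptors. On probe set 1428136_at HSC read 171 and 184 units and MPP 23.3 and 18.6. All 4 values were above the floor and the groups lay far apart, with means of 177 ± 8.89 and 20.9 ± 3.29 (SD, n = 2 each). Sfrp1 exceeded its MPP level 6.83-fold in HSC (log2 difference 2.77, SE 0.27, limma adjusted p = 1.49e-04) and was called in all 14 alternatives, with differences from 1.46 to 2.95. The other tested Sfrp1 probe set was near the floor and lay at 0.16 (adjusted p = 0.879). Sfrp1 is also made by stromal cells of bone marrow, and the sort here was for c-Kit and Sca-1 within lineage-negative cells. In the list of 9 stroma and bone genes, 7 had a probe set, and their summed signal was 232 and 263 units in HSC and 280 and 242 in MPP. Pdgfrb made up most of the MPP sum, and without it the summed signal of the others was higher in HSC. Col1a2 was higher in HSC (128 and 138 units against 26.6 and 31.2) and Pdgfrb lower (24.6 and 44.1 against 185 and 156), while Col3a1 and Pdgfra were at or under the floor on all arrays. The part of such cells in the Sfrp1 signal was not tested.

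The other antagonists gave no call. Znrf3, a ligase that removes Frizzled receptors from the surface, read 164 and 188 units in HSC and 161 and 156 in MPP (log2 difference 0.14, 95% interval -0.32 to 0.61, limma adjusted p = 0.729). Nkd1, a feedback inhibitor that binds Dishevelled, read 33.4 and 25.2 units in HSC and 30.04 and 27.3 in MPP (0.02, adjusted p = 0.985). Both differences turned sign with equal array medians. Dkk1 and Dkk3, secreted proteins of the Dickkopf family, and Wif1, which binds Wnt ligands, were left out as dim, as was Rnf43, the partner of Znrf3. Their highest values were 19.4, 22.3, 5.06 and 3.18 units.

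A further 98 pathway genes outside the list, also chosen with earlier results of these data known, were counted in the same fit. Of 71 tested, 8 were higher and 2 lower in HSC, and 61 were not called, beside 7.71% higher and 5.90% lower over all genes tested. By probe set, 8 of 148 were higher and 5 lower, beside 5.96% and 4.65% of all probe sets tested, so these counts were near the share over the array. The median log2 difference of the 71 was 0.20, beside 0.10. Wls, which carries Wnt ligands to the cell surface, read 302 and 242 units in HSC and 141 and 147 in MPP, 1.85-fold higher (limma adjusted p = 0.0219). Lgr4, a receptor for R-spondins, which keep Frizzled receptors at the surface, read 65.9 and 67.6 units in HSC and 7.96 and 21.1 in MPP, 3.74-fold higher (adjusted p = 0.0130). Dixdc1, which binds Dishevelled and Axin, read 50.5 and 49.4 units in HSC and 6.90 and 6.88 in MPP, at least 3.50-fold higher (adjusted p = 0.00779). It was the member of the 20 other cytoplasmic genes that was called, beside Gsk3b at 0.07 (adjusted p = 0.878). On their MPP values alone, Lgr4 and Dixdc1 would not have passed the filter on dim probe sets.

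In the nucleus, 2 of 14 further genes were higher. The Groucho genes Tle2 and Tle6 rose 2.23-fold and 2.27-fold (limma adjusted p = 0.0322 and 0.0289), from 40.6 and 28.8 units to 80.6 and 87.1, and from 97.4 and 56.6 to 212 and 147. In the planar polarity and calcium arm 2 of 14 were higher, Plcb1, a phospholipase, by 2.75-fold and the transcription factor gene Nfatc2 by 1.75-fold (adjusted p = 0.0109 and 0.0356). Of 5 further ligands tested, limma called none, and 1 had an unadjusted p under 0.05.

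The largest fall was that of Apcdd1, a membrane protein that inhibits Wnt signalling. It read 23.7 and 13.6 units in HSC and 140 and 180 in MPP, 6.85-fold lower in HSC (limma adjusted p = 3.72e-04), with 1 of the 2 HSC arrays above the floor. Of its 4 tested probe sets 3 were called, all lower, and the fourth lay at -0.95 (adjusted p = 0.160). Among 7 tested target genes of the pathway, 1 was higher and 1 was lower. Id2, an inhibitor of helix-loop-helix factors, read 76.7 and 87.9 units in HSC and 29.6 and 34.4 in MPP, 2.32-fold higher (adjusted p = 0.0236), and the adhesion receptor gene Cd44 was 1.91-fold lower (adjusted p = 0.00404). Myc and Ccnd1 lay at -0.55 and 0.39 without a call (adjusted p = 0.0593 and 0.320). Many of these are also regulated by other pathways, and the cell division genes Mki67, Top2a and Cdk1 were lower in HSC in the same samples, with a summed signal of 1405 and 1169 units against 6990 and 5873. The part of the cell cycle in these values was not tested.

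Several of these calls were lost when an array was left out, often with a difference of similar size, or under other settings. Such a loss need not mean that a call rested on that array, since a fit with fewer arrays is also less precise. The call of Wls was lost at 0.73 without HSC replicate 1 (limma adjusted p = 0.0553), at 0.85 without MPP replicate 1 (0.115) and at 0.91 without MPP replicate 2 (0.0918), that of Lgr4 without MPP replicate 1 (1.42, adjusted p = 0.0560), and that of Cd44 without MPP replicate 2 (-0.88, adjusted p = 0.0590). Tle6 lost it without HSC replicate 1 or MPP replicate 2 (0.92 and 0.82, adjusted p = 0.0763 and 0.197) and Tle2 without HSC replicate 2 or MPP replicate 2 (1.10 and 0.94, adjusted p = 0.0748 and 0.193). Nfatc2 was not called without HSC replicate 2 (0.72, adjusted p = 0.0824), MPP replicate 1 (0.65, 0.259) or MPP replicate 2 (0.97, 0.0679). Id2 was not called without HSC replicate 2 (1.12, adjusted p = 0.0675), MPP replicate 1 (1.13, 0.106) or MPP replicate 2 (1.31, 0.0630), nor without _x_at, _s_at and _a_at probe sets (0.12, 0.902), where Wls was not called either (0.66, adjusted p = 0.170). On the mean of their probe sets Plcb1, Nfatc2 and Id2 were not called (0.57, 0.51 and 0.67, adjusted p = 0.374, 0.245 and 0.185). Quantile normalization ended the calls of Tle6, Tle2 and Nfatc2 (adjusted p = 0.0521, 0.0675 and 0.0569), and equal array medians those of these 3, Wls and Id2 (0.0524 to 0.120). With no filter on dim probe sets Lgr4, Tle6, Tle2, Nfatc2 and Id2 were not called (adjusted p from 0.0673 to 0.0950), and without the trend of variance on level these 5, Wls and Cd44 were not (0.0542 to 0.139). Dixdc1 and Apcdd1 kept their calls in all alternatives that gave a value. In the Wnt list, a fit without that trend ended the calls of Fzd3, Fzd6, Fzd7 and Tle3 (adjusted p = 0.114, 0.0860, 0.0971 and 0.121), and a fit with no filter on dim probe sets those of Fzd3, Fzd7 and Tle3 (0.0863, 0.0686 and 0.0606).

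**Figure D4:**
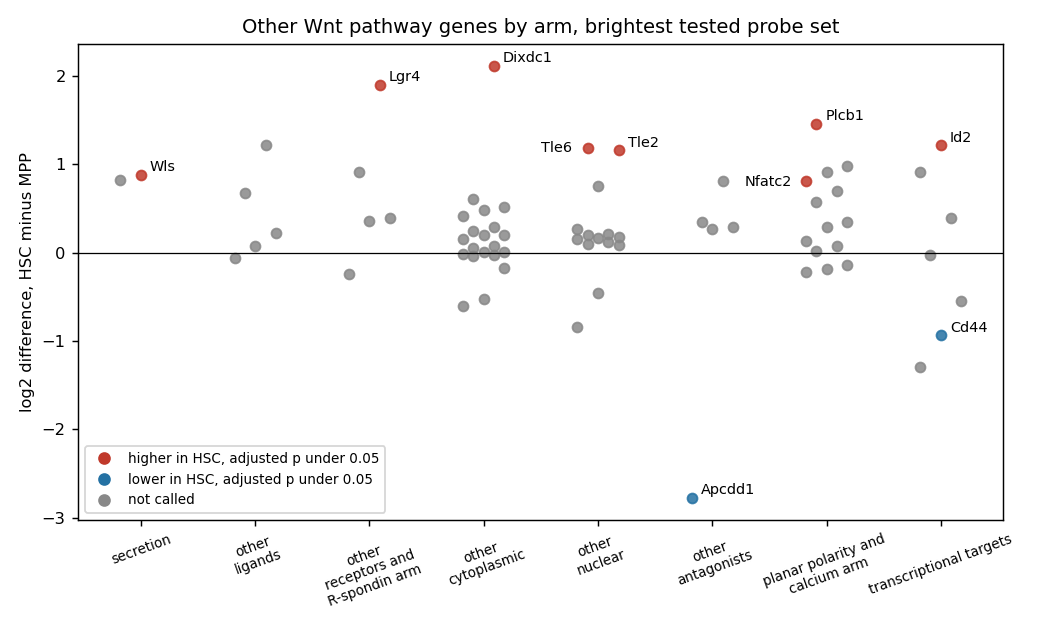
Log2 difference between HSC and MPP (y) for the brightest tested probe set of 71 further Wnt pathway genes, grouped by arm (x); red is higher and blue lower in HSC at a limma adjusted p under 0.05, grey is not called, and sideways spread is only for legibility. Dixdc1 (2.12) and Lgr4 (1.90) are highest and Apcdd1 (-2.78) is lowest, while most points lie within 1 of 0.

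**Figure D5:**
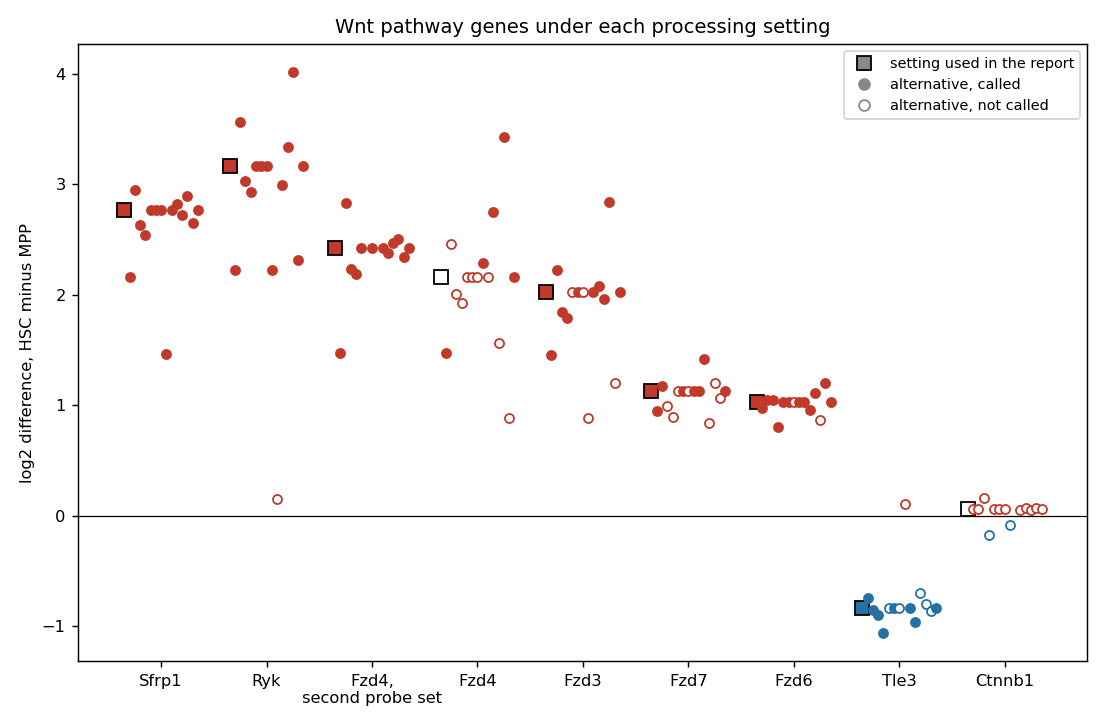
Log2 difference between HSC and MPP (y) for 8 Wnt genes, Fzd4 by 2 probe sets (x), under the setting of the report (squares) and each alternative (circles), filled where the adjusted p was under 0.05. Sfrp1 is filled throughout, the open Ryk circle at 0.16 is the setting without _x_at, _s_at and _a_at probe sets, and Tle3 crosses 0 under the mean of its probe sets.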

How the data were processed

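Per the labels' protocols, total RNA of sorted cells was amplified in 2 cycles and biotin-labelled. Such amplification favours the 3' ends of transcripts. The deposited values are linear probe set intensity values, and the trimmed mean of about 100.0 on each array shows that the authors had scaled them. The table held no detection calls, and the sources used here do not give the software behind it.

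Of 45101 probe sets, 64 controls were left out, and 34945 of the rest had 1 gene symbol, which was updated through gene identifiers to RefSeq (GRCm38.p6). Intensities were analysed as log2(intensity + 6.01), where 6.01 is 0.25 of the median of all values, without further normalization. The lowest 40% by mean level over the 4 arrays were left out, which kept 27022 probe sets. A probe set high in a single group could pass this filter through that group alone. The test of HSC minus MPP used limma 3.58.1 under R 4.3.3, lmFit and eBayes with a trend, 2-sided, with no block, and Benjamini-Hochberg adjustment over all probe sets tested, threshold 0.05. Against 2 residual degrees of freedom stood 8.48 prior ones, that is, most of the variance estimate came from the other probe sets. The code was tested on simulated data. A bound ("at least") is the ratio of geometric mean intensities, with values under the floor set to it, where neither array of a group exceeded it. 4 arrays limit the precision.

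The members, lists and tests were chosen with earlier results of these data known. Genes named with values were all members with a called probe set, Ctnnb1, and in each role the brightest member and the 2 uncalled ones with the smallest p. Of the further pathway genes, up to 2 called ones per arm and direction were named. Gsk3b, Myc and Ccnd1, the other members given by value and the marker genes were added for background. Alternatives were another pseudocount, normalization, filter, prior, probe set rule, leaving out each replicate, and the replicate number as a block.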

Additional observations from a re-analysis of the deposited data

How the results depend on the processing

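For 28 named genes, 300 of 384 values under the alternatives kept their direction and their side of the threshold, 59 lost a call, 7 gained one and 18 turned sign. The Wnt genes called higher numbered 5, or 3 with no filter on dim probe sets, 2 without the trend in the prior variance and 3 to 8 without single replicates, and those called lower 1, or 0 with no filter, without the trend or with the mean of all tested probe sets, and 0 to 1 without single replicates. The further pathway genes called higher numbered 8, or 5 after quantile normalization or without _x_at, _s_at and _a_at probe sets, 3 with equal array medians or no filter, 2 without the trend and 3 to 7 without single replicates. Those called lower numbered 2, or 6 with equal array medians, 1 without the trend, 4 with the replicate block and 1 to 3 without single replicates. Over all probe sets the calls of 1611 higher and 1257 lower became 1020 and 2379 with equal array medians, 917 and 780 with no filter, 633 and 374 without the trend, 2525 and 1833 with the replicate block, and 1026 to 2011 and 568 to 1908 without single replicates. The cause was not tested.

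Of the called genes, Tle3 alone turned sign, to 0.11 with the mean of its probe sets, which holds a second probe set of opposite direction. Among uncalled genes, Dvl2 turned to -0.16 after quantile normalization and -0.17 with equal array medians or without HSC replicate 2. Nkd1 turned to -0.22 in both of these scalings, -0.19 with the mean of its probe sets, -0.15 without HSC replicate 1 and -0.04 without MPP replicate 2. With equal array medians Ctnnb1 turned to -0.17 and Znrf3 to -0.090, and with the mean of its probe sets Ctnnb1 turned to -0.081. Csnk1a1 turned to 0.083 with the mean, 0.32 without _x_at, _s_at and _a_at probe sets and 0.066 without HSC replicate 1. Ctnnbip1 turned to 0.21 and 0.79 in the first 2 of these, and Dvl1 to -0.025 without HSC replicate 2. Without single replicates Dvl1 ranged from -0.025 to 0.58, Dvl2 from -0.17 to 0.30, Csnk1a1 from -0.53 to 0.066 and Nkd1 from -0.15 to 0.19. Median differences over all probe sets were 0.11 as deposited, -0.01 after quantile normalization and -0.13 with equal array medians.

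The groups share replicate numbers, but same-numbered arrays did not deviate together (correlation 0.03 over 27022 probe sets, which are not independent), and the labels do not say that a number marks a shared animal or day. With the replicate block 6 Wnt genes were higher and 1 lower, Fzd4 being added on its brighter probe set. This fit leaves fewer residual degrees of freedom than the main one, so its calls rest still more on the variance of other probe sets. Leaving out a replicate assumes that the lone array of a group varies like the other group. Without counts, depth is unknown, and signal near the floor limits all ligands, Lrp5, Ror1, Ror2, Axin2, Lef1 and most antagonists.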

Other observations

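Of the 53 Wnt probe sets left out as dim, 28 were at or under the floor on every array. In 5 of the 53 both HSC values were above the floor and both MPP values under it, with no overlap, and none had the opposite pattern. The share with either pattern among all probe sets left out as dim was not counted, so these counts are not a result about Wnt genes. Over the dimmest group of tested probe sets the median log2 difference was itself 0.22. The 5 were chosen after their values were seen and carry no test. They belong to Dkk1, which read 19.4 and 19.4 units in HSC and 11.9 and 1.63 in MPP, to Axin2, given above, to a second Fzd8 probe set (31.4 and 23.0 against 1.31 and 9.83), and to a pair of Sfrp1 probe sets (17.0 and 26.1 against 1.399 and 11.7, and 18.8 and 21.1 against 8.43 and 3.42). The HSC arrays had higher floors and medians than the MPP arrays.

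HSC and MPP did not overlap in 26 of the 49 tested Wnt probe sets (53.1%), beside 54.6% of all tested probe sets. Above 0 lay 38 of the 49 (77.6%), beside 58.3% of all tested probe sets, and 15 of the 38 belonged to receptors. Some of these passed the filter on dim probe sets through their HSC values alone. MPP replicate 1 held the lowest value of 18 of the 49 probe sets and MPP replicate 2 of 13, against 9 for each HSC array. These are 36.7%, 26.5% and 18.4%, beside 26.3% and 28.6% for the MPP arrays and 21.2% and 23.9% for the HSC arrays over all tested probe sets.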
